A study of Mus musculus with 8 samples.

Results

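The Notch pathway was followed in the whole pregnant uterus of the mouse through 10 genes: the receptors Notch1, Notch2, Notch3 and Notch4, the ligands Dll1, Dll4 and Jag1, and the pathway targets Hes1, Hey1 and Nrarp. They are 10 of the 49585 genes in the count table and were found by Ensembl ID through their symbols in the GENCODE mouse M21 annotation. Nrarp was singled out because its count was lower in the toxin group in an earlier analysis of these same libraries, and the other 9 genes were put beside it as parts of the same pathway. The difference between the groups therefore took part in the choice, and for these 10 genes it is given as a description. How many of them the fits over all genes called is stated once, with nothing read from it.

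Notch receptors are transmembrane proteins that are activated by ligands on a neighbouring cell. Ligand binding lets the protease ADAM10 and then the gamma-secretase complex cut the receptor, and the freed intracellular domain enters the nucleus, where it joins the DNA-binding protein RBPJ and a Mastermind coactivator to switch on targets such as the Hes and Hey repressors. Nrarp is a short ankyrin-repeat protein that is itself a Notch target and that binds the intracellular domain and limits its activity. In the mouse uterus Notch signalling takes part in decidualization, the change of the stroma that follows implantation, and in blood vessels Dll4 restrains the formation of sprouting tip cells.

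All females were 8-week-old pregnant Foxp3DTR mice, in which the Foxp3 locus drives a receptor for diphtheria toxin, and all had been mated with BALB/c males. Foxp3 is the transcription factor of regulatory T cells, so the toxin acts on these cells in the whole animal and not in the uterus alone. One group had intraperitoneal injections of 1 µg diphtheria toxin (DT) and the other of PBS, on embryonic days 1, 3, 5 and 7 (the protocols also call the injections daily), and the labels' protocols put the loss of regulatory T cells at 85%. The entire uterus with the fetal tissue was taken on embryonic day 8 for mRNA sequencing, which gave 4 DT-labelled libraries (replicates 1, 3, 4 and 5) and 4 PBS-labelled libraries (replicates 1, 2, 4 and 6). The protocols count 4 females per group, so each library stands for 1 animal. The library titles end in S-numbers whose meaning is not stated, and each S-number occurs in 1 group only, so anything they mark cannot be told apart from the treatment. Within the PBS group, replicates 1 and 2 carry one S-number and replicates 4 and 6 another, so differences between these pairs cannot be told apart from the S-number either.

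Total counts ranged from 94794512 to 109847604 per library. Levels are given as CPM, a gene's count relative to the size of its library, with library sizes scaled by TMM factors. The uterine genes Pgr (progesterone receptor) and Hoxa10 were high in every library: Pgr measured 237 to 320 CPM in DT-labelled and 270 to 387 CPM in PBS-labelled libraries, and Hoxa10 measured 377 to 440 CPM and 350 to 420 CPM in the same groups. Foxp3 was not lower in the DT group, with a mean of 5.41 ± 0.345 CPM in DT-labelled and 4.89 ± 0.44 CPM in PBS-labelled libraries (SD, n = 4 each), so it gave no check of the labels and the groups are named by label. PBS-labelled replicates 1 and 2 stood apart by their conceptus genes (embryonic globins, yolk sac and trophoblast genes, 9 of 9 detected). Their summed level was 10.5 to 29.7 CPM in the DT-labelled libraries, 151 and 671 CPM for PBS-labelled replicates 1 and 2, and 6.63 and 13.8 CPM for PBS-labelled replicates 4 and 6. The embryonic globin Hbb-y was at 0 in DT-labelled replicates 1, 4 and 5 and in PBS-labelled replicate 6. DT-labelled replicate 1 had the least decidual RNA, with 687 CPM of the decidual prolactin Prl8a2 against 2893 to 8960 CPM in the other 7 libraries. For the fold changes that these libraries moved most, values without them are given too.

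Among the 10 genes, levels can be compared only per length of transcript, here as CPM per kilobase of annotated exon (RPKM, mean ± SD over all 8 libraries). Hes1 was highest with 10.3 ± 0.917 RPKM, followed by Notch4 with 9.48 ± 2.15 and Notch2 with 8.2 ± 0.584 RPKM, and the ranges of these 3 genes overlapped from one to the next. Nrarp (6.17 ± 1.01), Notch3 (5.05 ± 0.965), Jag1 (4.7 ± 0.894), Dll4 (4.44 ± 0.386) and Notch1 (4.34 ± 0.338 RPKM) formed a middle run in which neighbours in the order also overlapped. Hey1 (1.8 ± 0.0536 RPKM) and Dll1 (1.13 ± 0.135 RPKM) were lowest, each without overlap with the gene above it. When the longest transcript replaced the union of exons as the length, Notch1 moved from rank 8 to rank 4 of the 10 (6.51 RPKM), and the top 3 and bottom 2 kept their places.

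The genes also differed in how much they varied between females. Hey1 was the steadiest, with its highest library only 1.09-fold above its lowest. Notch4 varied most, 2.09-fold, followed by Jag1 (1.78-fold), Notch3 (1.73-fold) and Nrarp (1.56-fold). In Notch4, Jag1 and Notch3 the groups overlapped, whereas in Nrarp they did not.

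**Figure D1:**
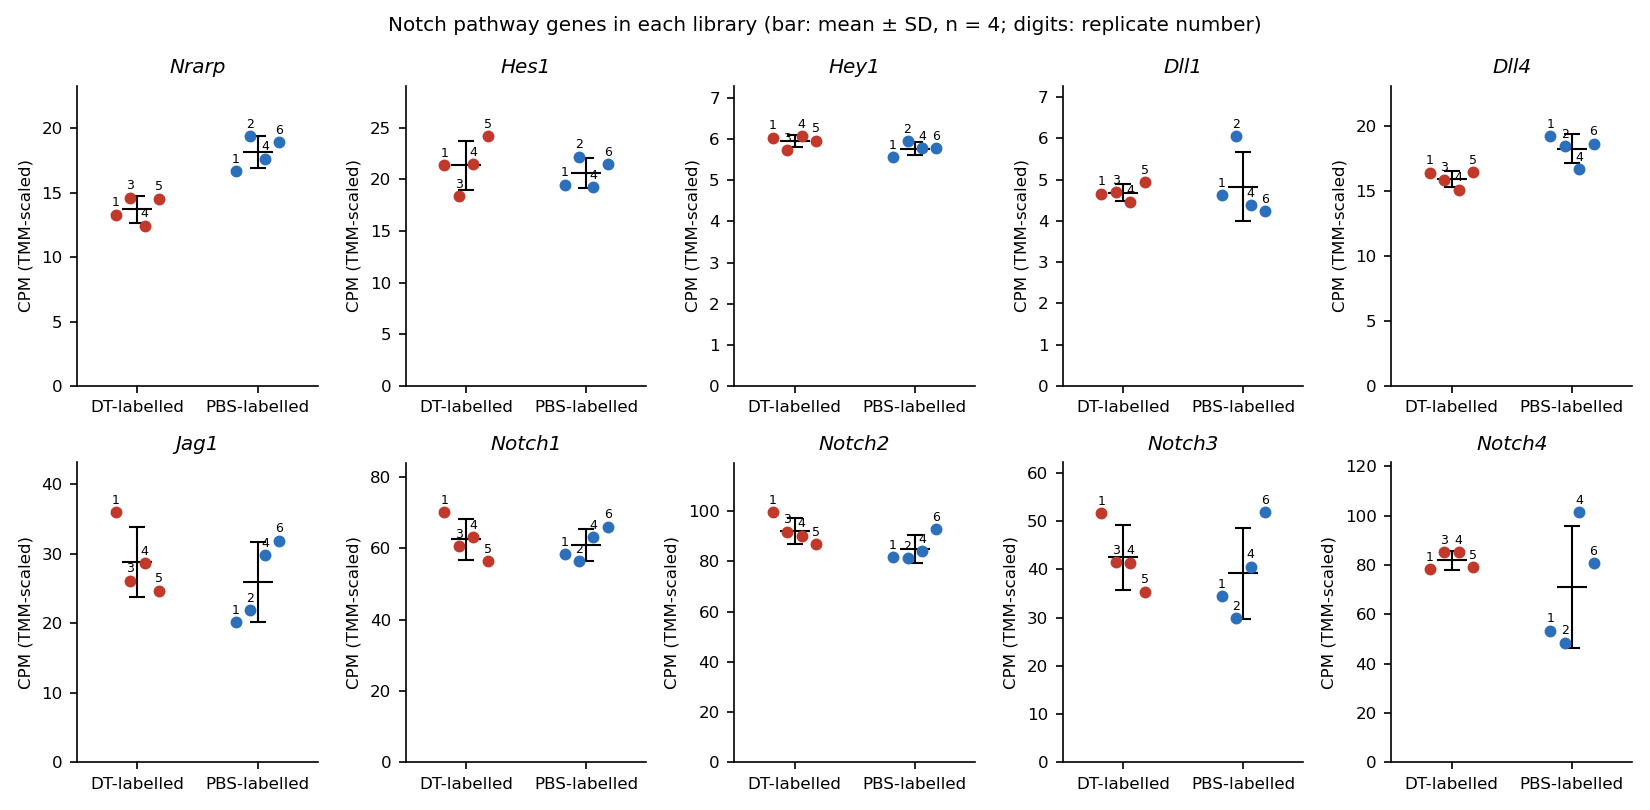
CPM of each of the 10 Notch pathway genes (vertical axes, each starting at 0) in the 4 DT-labelled libraries and the 4 PBS-labelled libraries, with replicate numbers beside the points and mean ± SD as bars. Nrarp lies at 12.4 to 14.6 CPM in DT-labelled and 16.6 to 19.4 CPM in PBS-labelled libraries, Dll4 also shows no overlap, and Notch4 spreads widest, from 48.5 to 101 CPM among the PBS-labelled libraries.

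All 10 genes passed the filter on low counts. In the fit over all 22693 genes that passed it (edgeR's quasi-likelihood test, threshold 0.05 after Benjamini-Hochberg adjustment), 0 of the 10 were called, beside 0.326% of all genes (0.322% higher, 0.00441% lower). With no adjustment, 2 of the 10 had a p under 0.05 (Nrarp and Dll4, both lower), beside 8.7% of all genes (3.98% lower). DESeq2 called 1 of the 10, Nrarp, beside 1.32% of the genes it tested (0.278% lower), and limma voom called 0, beside 0.229% (0.00441% lower). The DT-labelled libraries lay below the PBS-labelled ones without overlap for 2 of the 10 (Nrarp and Dll4) and above for 0, beside 1.73% and 3.33% of all genes (5.06% together). Because the contrast took part in the choice of these genes, nothing is read from these counts. The median log2 fold change of the 10, DT minus PBS, was 0.05, and that of all genes tested was 0.01.

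Among the ligands, Dll4, the vascular Delta ligand (ENSMUSG00000027314, GRCm38 chromosome 2, 119325784 to 119335962, plus strand), measured 16.4, 15.9, 15.1 and 16.4 CPM for DT-labelled replicates 1, 3, 4 and 5, against 19.2, 18.5, 16.7 and 18.7 CPM for PBS-labelled replicates 1, 2, 4 and 6. Every DT-labelled library was below every PBS-labelled one, but the gap between DT-labelled replicate 5 and PBS-labelled replicate 4 was small. The means were 16 ± 0.622 CPM among DT-labelled uteri, against 18.3 ± 1.1 CPM in the PBS-labelled group (SD, n = 4 each). The log2 fold change was -0.20 ± 0.07 (SE), and its 95% confidence interval ran from -0.35 to -0.04. Without PBS-labelled replicates 1 and 2 it was -0.15 ± 0.09, and with libraries scaled by their totals alone it was -0.0772, or -0.197 relative to the median of all genes.

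Jag1, the Jagged ligand that is made in smooth muscle and endothelium among other cells (ENSMUSG00000027276, chromosome 2, 137081456 to 137116644, minus strand), measured 35.9, 26.1, 28.6 and 24.7 CPM in the DT-labelled libraries and 20.2, 21.9, 29.7 and 31.8 CPM among PBS-labelled uteri, in the replicate order given above. The groups overlapped, and PBS-labelled replicates 1 and 2 were the lowest of all 8. Its log2 fold change was 0.15 ± 0.18 with all libraries, -0.10 ± 0.16 without PBS-labelled replicates 1 and 2, and -0.22 ± 0.08 when DT-labelled replicate 1 was left out as well, so its sign rested on these libraries.

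Dll1, a Delta ligand that acts in the segmentation of the embryo and in the immune system (ENSMUSG00000014773, chromosome 17, 15367354 to 15376872, minus strand), was the scarcest of the 10. It measured 4.66, 4.69, 4.45 and 4.94 CPM in the DT-labelled libraries and 4.62, 6.05, 4.38 and 4.23 CPM among PBS-labelled uteri. Its one high library was PBS-labelled replicate 2, which also had the highest conceptus level. The log2 fold change was -0.04 ± 0.13 with all libraries and 0.118 ± 0.105 without PBS-labelled replicates 1 and 2. An antisense gene, A930024N18Rik, covers 20.5% of the Dll1 exon bases, and reads of the 2 genes could not be told apart where they overlap. The same limit holds for smaller parts of other genes. Antisense genes cover 5.56% of the Dll4 exon bases (Gm14207), 7.5% and 2.91% of those of Notch1 (0610009E02Rik and Gm13568) and 6.03% of those of Notch3 (Gm17276). Gm42820, on the same strand, covers 5.02% of those of Notch2.

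All 4 receptors had positive log2 fold changes with all 8 libraries, and all 4 confidence intervals included 0. Notch1 (ENSMUSG00000026923, chromosome 2, 26457903 to 26516663, minus strand), the receptor used most widely in endothelium and T cell development, measured 70.1, 60.6, 63.1 and 56.5 CPM among DT-labelled uteri, against 58.3, 56.3, 63.2 and 66.1 CPM among PBS-labelled uteri. The log2 fold change was 0.04 ± 0.08 with a 95% confidence interval of -0.15 to 0.23, and -0.0506 ± 0.1 without PBS-labelled replicates 1 and 2. Notch2 (ENSMUSG00000027878, chromosome 3, 98013527 to 98150361, plus strand) measured 99.4, 91.7, 90.1 and 86.9 CPM among DT-labelled uteri, against 81.5, 81.1, 84 and 92.9 CPM among PBS-labelled uteri. Its log2 fold change was 0.12 ± 0.07, and 0.0547 ± 0.089 without those replicates. For both genes the groups overlapped, DT-labelled replicate 1 was the highest library and PBS-labelled replicate 2 the lowest.

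Notch3 (ENSMUSG00000038146, chromosome 17, 32120820 to 32166852, minus strand), the receptor of vascular smooth muscle and pericytes, measured 51.7, 41.5, 41.4 and 35.4 CPM among DT-labelled uteri, against 34.5, 29.9, 40.6 and 51.8 CPM among PBS-labelled uteri. Its 2 highest libraries were DT-labelled replicate 1 and PBS-labelled replicate 6, 1 in each group, and the log2 fold change was 0.12 ± 0.18. Without PBS-labelled replicates 1 and 2 it was -0.125 ± 0.173.

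Notch4 (ENSMUSG00000015468, chromosome 17, 34564268 to 34588503, plus strand), a receptor found mainly in endothelium, measured 78.2, 85.1, 85.1 and 79.1 CPM among DT-labelled uteri, against 53.4, 48.5, 101 and 80.8 CPM among PBS-labelled uteri. The DT-labelled libraries lay close together, and the PBS-labelled libraries split, with replicates 1 and 2 below all others and replicate 4 above all others. The means were 81.9 ± 3.75 CPM among DT-labelled uteri, against 71 ± 24.7 CPM in the PBS-labelled group (SD, n = 4 each), and the log2 fold change of 0.21 ± 0.22 became -0.16 ± 0.10 without PBS-labelled replicates 1 and 2. With a conceptus score as a covariate it was -0.10 ± 0.10.

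Endothelial marker genes were divided in how they ran over the libraries. Of the 12 genes on the endothelium list 12 were detected, and their summed level was 997 to 1383 CPM among DT-labelled uteri, against 1027 to 1936 CPM among PBS-labelled uteri, highest in PBS-labelled replicates 1 and 2. PBS-labelled replicates 1 and 2 were the 2 highest libraries for 6 of the 12 (Pecam1, Cdh5, Tek, Tie1, Esam and Cldn5) and, as for Notch4, the 2 lowest for 3 of them (Flt1, Erg and Robo4). Apart from the 3 most abundant genes, Cdh5, Pecam1 and Kdr, these were named after their values were seen. Pecam1, an adhesion molecule of endothelial cells, measured 167 to 254 CPM in the DT-labelled libraries, against 369, 458, 177 and 271 CPM for PBS-labelled replicates 1, 2, 4 and 6. Robo4, a guidance receptor of endothelium, measured 29.3 to 32.7 CPM in the DT-labelled libraries, against 22.5, 19.2, 29.1 and 33.1 CPM for the same PBS-labelled replicates. Efnb2, an arterial endothelial gene and Notch target, had the same order as Notch4 at its lower end, with 115 to 161 CPM among DT-labelled uteri, against 86.8, 81.3, 160 and 107 CPM among PBS-labelled uteri. In whole tissue, fewer cells of a type and less RNA per cell cannot be told apart.

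Smooth muscle genes varied between the females as well. All 7 genes of the smooth muscle list were detected, and their summed level was 3144, 1754, 1817 and 1382 CPM among DT-labelled uteri, against 1441, 1334, 2642 and 2167 CPM among PBS-labelled uteri. DT-labelled replicate 1 was the highest for this sum and for Jag1, Notch1 and Notch2, and PBS-labelled replicate 2 was the lowest for this sum and for all 4 receptors. The part of tissue composition in the levels of these genes was not tested.

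**Figure D2:**
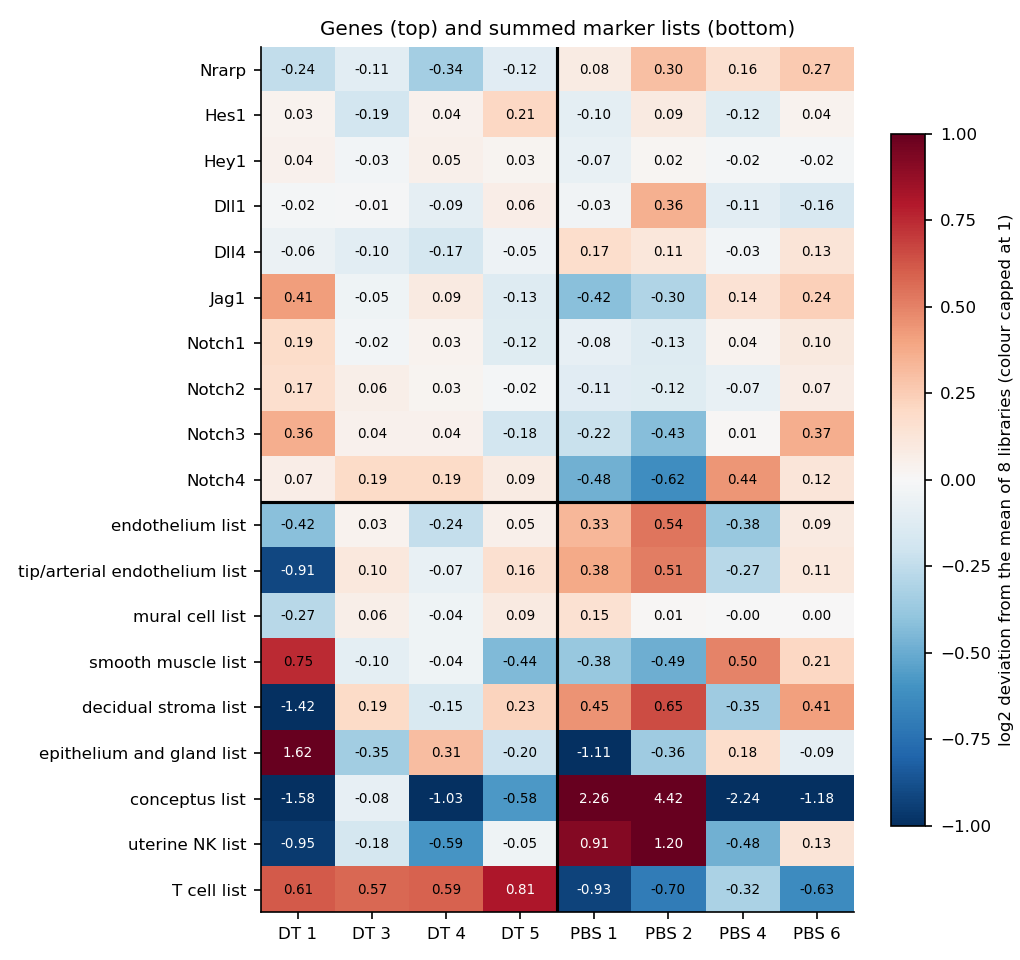
Log2 deviation of each gene (upper rows) and of the summed CPM of each marker list (lower rows) from its own mean over the 8 libraries, with the 4 DT-labelled libraries left of the 4 PBS-labelled ones. Nrarp is negative in 4 of 4 DT-labelled libraries and positive in 4 of 4 PBS-labelled ones, while Jag1, Notch3 and Notch4 are lowest in PBS-labelled replicates 1 and 2, where the conceptus and endothelium lists are highest.

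The transcriptional repressors Hes1 and Hey1, the best known Notch targets, showed no separation. Hes1 (ENSMUSG00000022528, chromosome 16, 30064384 to 30067796, plus strand) measured 21.4, 18.4, 21.5 and 24.2 CPM among DT-labelled uteri, against 19.5, 22.2, 19.2 and 21.5 CPM among PBS-labelled uteri, a log2 fold change of 0.05 ± 0.09 with a 95% confidence interval of -0.16 to 0.27. Hey1 (ENSMUSG00000040289, chromosome 3, 8663359 to 8667256, minus strand) measured 6.04, 5.74, 6.08 and 5.97 CPM among DT-labelled uteri, against 5.56, 5.95, 5.79 and 5.78 CPM among PBS-labelled uteri, a log2 fold change of 0.05 ± 0.08 with an interval of -0.13 to 0.22. The highest and the lowest Hes1 library were both DT-labelled (replicates 5 and 3), and in Hey1 the groups overlapped.

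Nrarp (ENSMUSG00000078202, chromosome 2, 25180758 to 25183339, plus strand) had the largest fold change of the 10, in either direction. It measured 13.3, 14.6, 12.4 and 14.5 CPM for DT-labelled replicates 1, 3, 4 and 5, against 16.6, 19.4, 17.6 and 18.9 CPM for PBS-labelled replicates 1, 2, 4 and 6. The groups did not overlap, and PBS-labelled replicates 1 and 2, which stood apart in Jag1, Notch3 and Notch4, held the lowest and the highest Nrarp value of their own group. The means were 13.7 ± 1.05 CPM among DT-labelled uteri, against 18.2 ± 1.25 CPM in the PBS-labelled group (SD, n = 4 each), so the DT mean was 0.756 of the PBS mean. The log2 fold change was -0.40 ± 0.08 (SE) with a 95% confidence interval of -0.59 to -0.21. Leaving out each library in turn gave -0.44 to -0.36, leaving out PBS-labelled replicates 1 and 2 gave -0.42 ± 0.10, and adding the conceptus score as a covariate gave -0.38 ± 0.09. These values come from the libraries in which Nrarp was chosen and are no separate support for it.

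Most of the Nrarp gene is also annotated on the other strand. The antisense gene Gm38287 (ENSMUSG00000103217, chromosome 2, 25180781 to 25183339, minus strand) covers 2051 bases, or 79.4%, of the Nrarp exon bases, and 100% of its own exon bases lie within those of Nrarp. Gm38287 measured 10.4, 11.9, 9.5 and 11.6 CPM among DT-labelled uteri, against 13.1, 15.6, 13.6 and 14.6 CPM among PBS-labelled uteri. In every library its count was 76.3% to 81.3% of the Nrarp count, close to the 79.4% of the exon bases that the genes share. The log2 fold change of Gm38287 was -0.39 ± 0.10. Reads from the 2 strands could not be told apart, since the strand setting of the counting is not given in the sources used here, and the values of the 2 genes are not independent measurements. All of the Nrarp windows of 75 bases that occur in another annotated gene (76.1%) occur in Gm38287 and in no gene elsewhere.

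**Figure D3:**
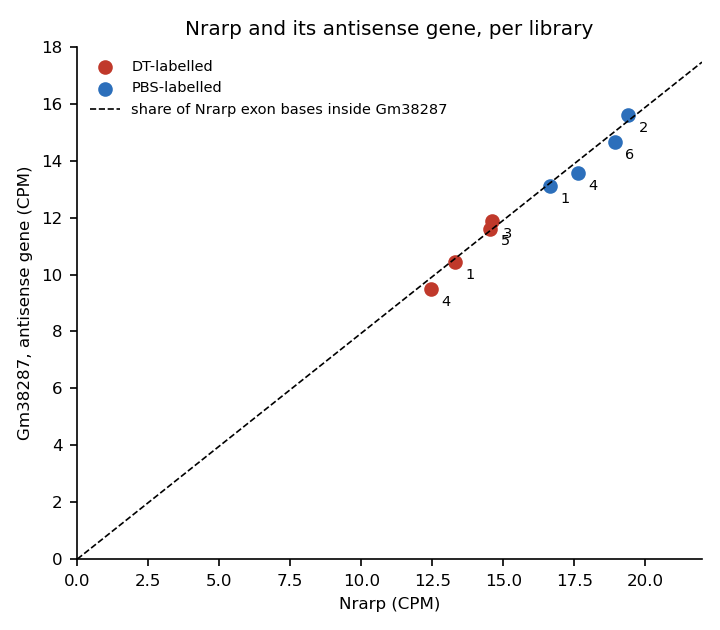
CPM of the antisense gene Gm38287 (vertical axis) against CPM of Nrarp (horizontal axis) in the 8 libraries, with replicate numbers beside the points. The dashed line has the slope 79.4%, the share of Nrarp exon bases that lie inside Gm38287, and all 8 libraries lie close to it, the DT-labelled ones at its lower end.

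The promoters of the 2 genes without overlap between the groups are shown because the activated receptor acts on targets through RBPJ sites, and Hes and Hey proteins through E-box-like sites. The 250 bases directly before the RefSeq start are given 5′ to 3′ on the strand of the gene (build GRCm38.p6; chr2:25180508-25180757 for Nrarp and chr2:119325534-119325783 for Dll4), with matches to the E-box CACGTG in capitals.
Nrarp: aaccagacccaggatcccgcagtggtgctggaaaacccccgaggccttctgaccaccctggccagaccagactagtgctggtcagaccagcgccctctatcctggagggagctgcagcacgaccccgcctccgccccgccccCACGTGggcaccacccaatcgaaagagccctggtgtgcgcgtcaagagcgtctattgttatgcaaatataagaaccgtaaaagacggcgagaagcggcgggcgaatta
Dll4: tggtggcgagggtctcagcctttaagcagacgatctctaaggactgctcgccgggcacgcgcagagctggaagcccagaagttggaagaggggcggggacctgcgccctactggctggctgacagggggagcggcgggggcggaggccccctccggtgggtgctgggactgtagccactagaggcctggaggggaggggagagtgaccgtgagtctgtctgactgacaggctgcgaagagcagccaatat
The RBPJ core TGGGAA was searched on both strands in the 250 bases before each start, and it was found in 0 of the 9 windows that RefSeq gives for 8 of the 10 genes (Hes1 and Hey1 not among them), against 21.6% of all 32851 windows. The longer form GTGGGAA, which contains the core, was found in 0 of the 9 windows and in 5.42% of all. The palindromic E-box CACGTG occurred in 1 of the 9 windows, that of Nrarp, where it begins 108 bases before the start, and in 6.02% of all windows. A match describes the letters only, and no match says only that these letters are not in these windows.

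The wider pathway was taken from a list of 58 genes by role, of which 57 passed the filter on low counts. Hes5, a target of neural tissue, did not, with 0.00971 to 0.03 CPM among DT-labelled uteri, against 0.0378 to 0.474 CPM among PBS-labelled uteri. By edgeR 0 of the 57 rose and 0 fell, against 0.326% of all genes in both directions together. With an unadjusted p below 0.05 there were 1 on the higher and 5 on the lower side, beside 4.72% and 3.98% of all genes. DESeq2 called 1 lower (Nrarp), beside 0.278% of all genes, and limma voom called 0, beside 0.229%. Leaving the 10 genes aside, 18 of 47 had positive and 29 negative log2 fold changes, with a median of -0.04 beside 0.01 over all genes. The groups did not overlap for 4 of these 47 (8.51%), against 5.06% of all genes tested. These 4 were Jag2 below and Maml2, Snw1 and Psen2 above, of which Snw1 and Psen2 were named after their values were seen.

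Among the other ligands, Jag2, the second Jagged ligand, measured 21, 23, 22.1 and 22.6 CPM among DT-labelled uteri, against 25.6, 24.3, 23.2 and 25.7 CPM among PBS-labelled uteri. Its log2 fold change was -0.16 ± 0.06 (edgeR adjusted p = 0.558), and like that of Dll4 the difference was narrow: the DT-labelled replicate 3 and the PBS-labelled replicate 4 differed by less than the spread within either group. Dll3, a ligand of the presomitic mesoderm of the embryo, was near the limit of detection, at 0.101 to 0.24 CPM among DT-labelled uteri, against 0.151 to 0.588 CPM among PBS-labelled uteri, highest in PBS-labelled replicate 2 (log2 fold change -0.86 ± 0.49, edgeR adjusted p = 0.571). Without PBS-labelled replicates 1 and 2 the value for Dll3 was 0.09 ± 0.38.

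In the nuclear complex Maml2, a Mastermind coactivator, measured 33.2, 26.1, 28.8 and 27.5 CPM among DT-labelled uteri, against 19.6, 18.6, 25.7 and 24.1 CPM among PBS-labelled uteri. It was the only pathway gene on the higher side at an unadjusted p under 0.05, at 0.39 ± 0.12 on the log2 scale (adjusted p = 0.496, edgeR), and it was 0.21 ± 0.11 without PBS-labelled replicates 1 and 2. Maml3, its paralogue, had -0.35 ± 0.17 and the acetyltransferase Kat2a 0.15 ± 0.08 (edgeR adjusted p = 0.571 for both), and without these replicates they had -0.0345 ± 0.134 and 0.0734 ± 0.0939. Rbpj itself, the DNA-binding partner of the receptor, is named here although it was outside the naming rule. It differed by 0.14 ± 0.11 on the log2 scale (adjusted p = 0.617, edgeR). Rbpj measured 109 CPM in DT-labelled replicate 1, against 80 to 83.4 CPM in the other DT-labelled and 77 to 84.5 CPM in the PBS-labelled libraries. Its higher DT mean thus came mainly from that 1 library. Snw1, a nuclear cofactor, measured 55.8 to 59.4 CPM among DT-labelled uteri, against 52.4 to 55.4 CPM among PBS-labelled uteri (log2 fold change 0.08 ± 0.05, edgeR adjusted p = 0.572).

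Receptor processing genes were mostly on the lower side. Of 10 tested, 9 had negative log2 fold changes, beside 11025 of all 22693 genes. For most of the 10, PBS-labelled replicates 1 and 2 were the 2 highest libraries, and their part in this count was not tested. By edgeR 0 of the 10 passed (beside 0.326% of all genes), by DESeq2 0 (beside 1.32%) and by limma voom 0 (beside 0.229%). With an unadjusted p under 0.05 there was 1 lower, beside 3.98% of all genes. The gamma-secretase subunits Aph1b and Aph1c had log2 fold changes of -0.29 ± 0.11 (edgeR adjusted p = 0.553) and -1.12 ± 0.49 (edgeR adjusted p = 0.571). Of their 75-base windows, 12.6% and 12.7% occur in each other, and reads from these shared parts could not be placed with certainty. Without PBS-labelled replicates 1 and 2 Aph1b had -0.144 ± 0.0977. Aph1c measured 4.16 to 8.59 CPM in the DT-labelled libraries and 20.9, 20, 4.18 and 9.01 CPM for PBS-labelled replicates 1, 2, 4 and 6, so its value rested on the first 2 of these and was -0.09 ± 0.41 without them. Psen2, a catalytic subunit of gamma-secretase, differed by 0.12 ± 0.07 on the log2 scale (adjusted p = 0.573, edgeR). It measured 17.1, 14.6, 14.4 and 14.8 CPM among DT-labelled uteri, against 13.8, 13.9, 14 and 14.3 CPM among PBS-labelled uteri. The gap between the groups was narrow except for DT-labelled replicate 1.

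The glycosyltransferases of the receptor showed small differences: Pofut1, Mfng and Rfng had log2 fold changes of -0.04 ± 0.05, 0.07 ± 0.07 and 0.10 ± 0.11 (edgeR adjusted p = 0.726, 0.667 and 0.713). Among the modulators, the ubiquitin ligase Mib1, which activates ligands, had -0.16 ± 0.08, Neurl1a 0.55 ± 0.29 and Dtx3 0.42 ± 0.22 (edgeR adjusted p = 0.571 for each). Without PBS-labelled replicates 1 and 2 Neurl1a had 0.20 ± 0.30 and Dtx3 0.0725 ± 0.155, so most of both values came from these 2 libraries.

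Among the other targets, the ephrin Efnb2 differed by 0.33 ± 0.23 on the log2 scale (adjusted p = 0.591, edgeR), and by 0.034 ± 0.214 without PBS-labelled replicates 1 and 2. Hes7, a gene of the segmentation clock of the embryo, had -0.40 ± 0.28 (edgeR adjusted p = 0.596) at 0.18 to 0.214 CPM among DT-labelled uteri, against 0.151 to 0.351 CPM among PBS-labelled uteri. Il2ra (CD25), a chain of the receptor for interleukin-2 and a Notch target in T cells, measured 1.67, 3.5, 1.89 and 3.73 CPM among DT-labelled uteri, against 10.2, 18.6, 1.96 and 4.54 CPM among PBS-labelled uteri. It differed by -1.71 ± 0.64 on the log2 scale (adjusted p = 0.553, edgeR), which was -0.28 ± 0.47 without PBS-labelled replicates 1 and 2. Hes7 had 0.0849 ± 0.259 in that fit.

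**Figure D4:**
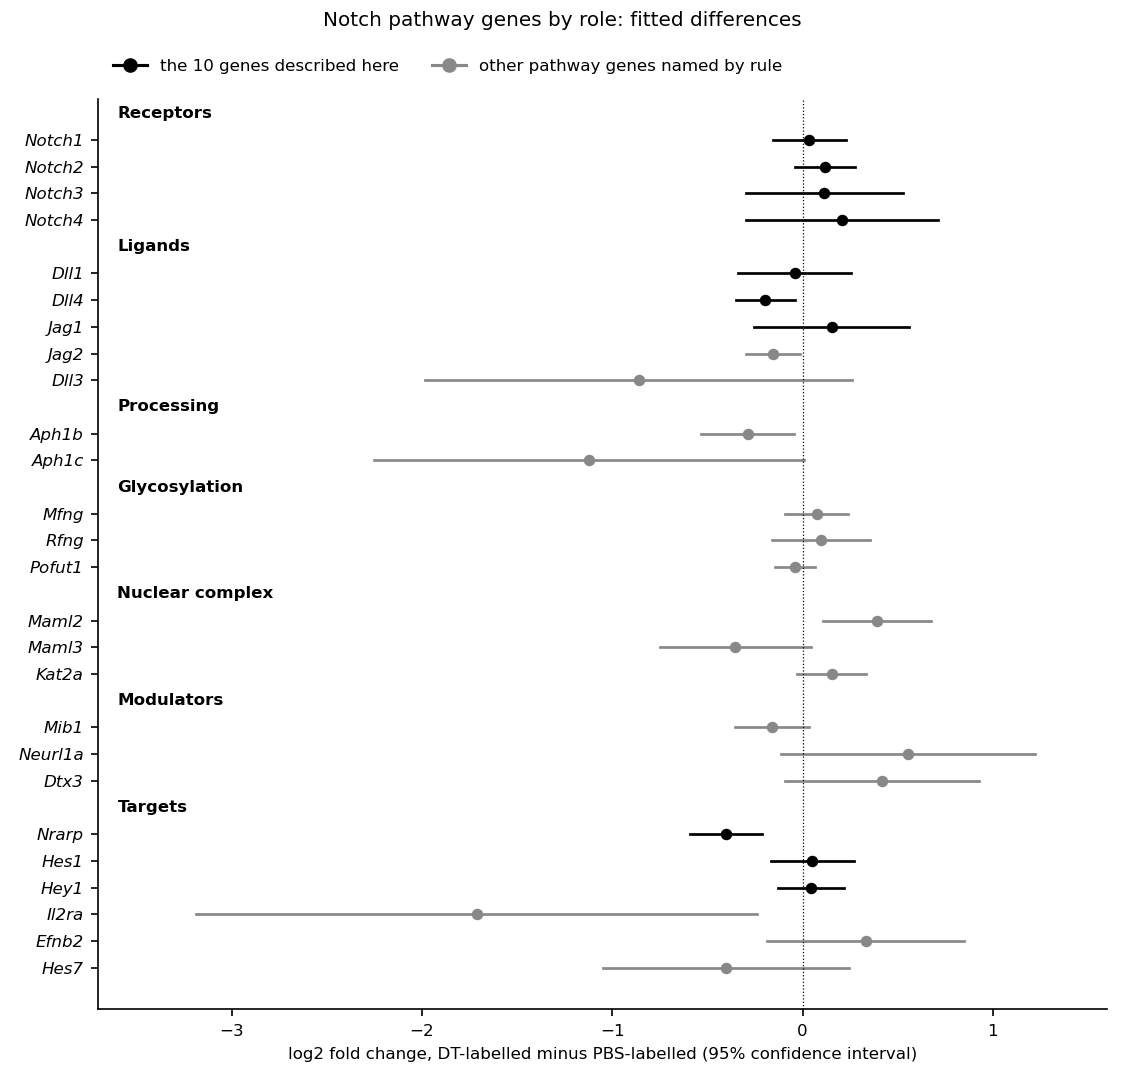
Log2 fold change, DT-labelled minus PBS-labelled (horizontal axis), with the 95% confidence interval of the edgeR fit, for the 10 genes (black) and the other pathway genes named by rule (grey), grouped by role. The interval of Nrarp runs from -0.59 to -0.21 and that of Dll4 from -0.35 to -0.04, while the intervals of the 4 receptors, Dll1, Jag1, Hes1 and Hey1 include 0, and those of Il2ra, Aph1c and Dll3 are the widest.

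The genes whose levels ran most like those of Nrarp over the 8 libraries were looked for among 13717 named genes whose mean log2 CPM was 0 or more. The measure was the root mean square difference between log2 CPM profiles, each centred on its own mean. The 5 nearest were Lrp8, a receptor for reelin and apolipoprotein E (0.0803 on the log2 scale), Mob1b, a Hippo pathway kinase activator (0.0966), Smoc1, a matricellular protein (0.0968), Celsr1, a cadherin of planar cell polarity (0.101), and Tnfrsf10b, a death receptor (0.101). All 5 had every DT-labelled library below every PBS-labelled one, as the measure favours, so their difference is no separate support. By edgeR 0 of the 5 passed (lowest adjusted p = 0.0826, Smoc1; all 5 were under 0.05 unadjusted), limma voom passed 0, and DESeq2 passed Smoc1 and Mob1b. Smoc1 measured 98.2 to 112 CPM among DT-labelled uteri, against 129 to 155 CPM among PBS-labelled uteri, and Lrp8 9.04 to 11 CPM and 11.5 to 14.5 CPM in the same groups. Of the pathway genes, Dll4 came nearest to Nrarp, at rank 117 with a difference of 0.144, followed by Jag2 at rank 253 (0.156) and Mib1 at rank 408 (0.163). Dll4 and Jag2 were also lower in the DT group without overlap, which the measure favours, so these ranks are no separate support either. Hey1 (rank 5203), Hes1 (rank 6163) and Notch1 (rank 6672) were in the middle of the ranking, and Notch4 was at rank 11470.

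Marker lists of cells that use Notch signalling were read beside Nrarp and Dll4. The tip and arterial endothelium list (10 of 10 genes detected) summed to 355 to 743 CPM among DT-labelled uteri, against 551 to 948 CPM among PBS-labelled uteri, with DT-labelled replicate 1 lowest. This order was that of the most abundant gene of the list, Angpt2, with 114 CPM in DT-labelled replicate 1 and 307 to 775 CPM in the other libraries. DT-labelled replicate 1 was also the lowest library for Sox17 (25.7 CPM) and Gja5 (11.5 CPM, named after its values were seen). Efnb2, on the same list, was highest in DT-labelled replicate 1 (161 CPM), so the sum does not stand for the list as a whole. On the endothelium list 5 of the 12 genes had positive and 7 negative log2 fold changes. Kdr, the main VEGF receptor of endothelium and the only one of the 12 with an unadjusted p under 0.05, measured 110 to 119 CPM among DT-labelled uteri, against 114 to 143 CPM among PBS-labelled uteri. The mural cell list (7 of 7 detected) summed to 2467 to 3179 CPM and 2979 to 3307 CPM in the same groups, although for 6 of its 7 genes PBS-labelled replicates 1 and 2 were the 2 lowest libraries. Of the endothelial, tip and arterial, and mural lists, 0 genes passed by edgeR (beside 0.326% of all genes), 0 by DESeq2 (beside 1.32%) and 0 by limma voom (beside 0.229%). Kdr was the only gene of these lists with an unadjusted p under 0.05, beside 8.7% of all genes, and nothing is read from it. T cells, in which Notch1 and its targets act, had 8 genes on their list, of which 4 rose by edgeR (beside 0.322% of all genes) and all 8 lay above without overlap (beside 3.33%). Their summed level was 14.3 to 16.9 CPM among DT-labelled uteri, against 5.07 to 7.73 CPM among PBS-labelled uteri. The part of any of these cells in the Nrarp and Dll4 values was not tested.

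**Figure D5:**
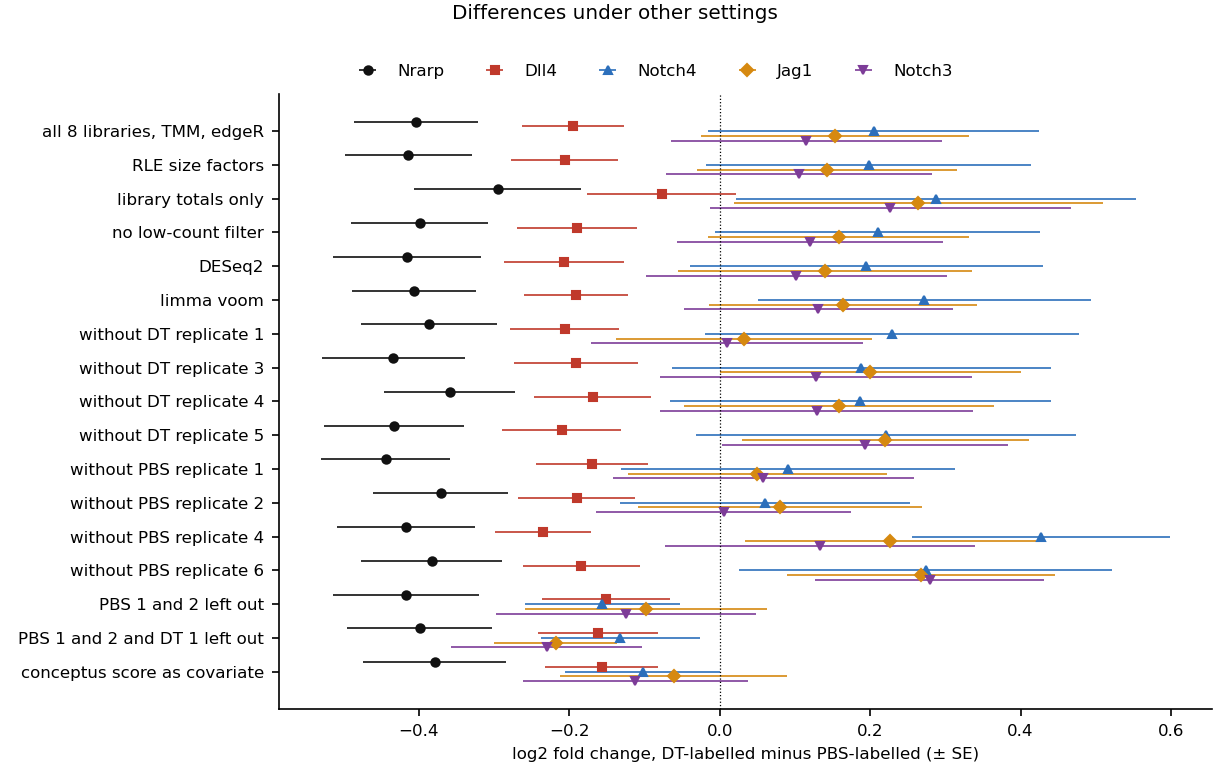
Log2 fold change, DT-labelled minus PBS-labelled (horizontal axis, points with ± SE), of Nrarp, Dll4, Notch4, Jag1 and Notch3 under each setting (rows): other scalings, tools, filters, left-out libraries and a covariate. Nrarp stays between -0.444 and -0.295 over the settings drawn, while Notch4, Jag1 and Notch3 are positive with all 8 libraries and negative without PBS-labelled replicates 1 and 2.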

How the data were processed

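RNA from the whole uterus was sequenced as paired reads of about 75 bases (Kapa mRNA hyperprep kit, NextSeq 500, per the labels' protocols, which also name an Illumina TotalPrep amplification kit). What the authors deposited are raw counts, whole numbers for each Ensembl gene. The tools named are SAMtools, featureCounts, HISAT2, Trimmomatic and DESeq2, on build GRCm38, per the submitters' processing notes. The sources used here give no versions, annotation release or strand setting. Tables of single libraries were compared with the table of the series, and 0 values differed.

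Counts were fitted in R 4.3.3 with edgeR 4.0.16: filterByExpr (minimum count 10, minimum total 15), TMM, and the robust quasi-likelihood test of DT against PBS, two-sided, with Benjamini-Hochberg adjustment over 22693 genes and a threshold of 0.05. Log2 values are those of DT less those of PBS, with the SE of the fit. DESeq2 1.42.0, limma voom (limma 3.58.1), other scalings, no filter, left-out libraries, a replicate block and a conceptus covariate (mean log2 CPM of the conceptus list) were alternatives. The fits were tested on simulated data.

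The 10 genes, the role and marker lists and the naming rule were chosen with earlier results of these data known. Named were the 10 genes, up to 3 others per role by unadjusted p (1 of them is not reported here), any pathway gene past the threshold, the 5 genes nearest to Nrarp in profile and up to 3 abundant genes per marker list. GENCODE M21 gave symbols for 49326 of 49585 genes, coordinates and exon lengths. Promoter sequences are from RefSeq (GRCm38.p6), matched by symbol. At these depths the least abundant of the 10 genes, Dll1, had at least 424 counts per library, so counting error is part of the spread of the scarcer genes. The biological coefficient of variation was 25% (common dispersion 0.0626).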

Additional observations from a re-analysis of the deposited data

Results flagged for a closer look

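Checks for 1 library far from the other 3 were made in 86 groups of 4 libraries. Of these, 2 were marked, and chance marks about 1 group in 20. The checks covered the 10 genes, the other pathway genes named by rule, the genes nearest to Nrarp in profile and the marker sums. Pathway genes named outside the rule (Rbpj, Snw1 and Psen2) were not checked, nor were single marker genes outside the pathway list. The summed mural cell level of PBS-labelled replicate 1 was 3310 CPM, against 2980 to 3000 CPM in the other 3 PBS-labelled libraries. Most of this sum was Des, with 2850.5 CPM in PBS-labelled replicate 1 and 2328 to 2601 CPM in the other 3. For the other 6 genes of the list, PBS-labelled replicates 1 and 2 were the 2 lowest libraries. The summed T cell level of DT-labelled replicate 5 was 16.9 CPM, against 14.3 to 14.7 CPM in the other 3 DT-labelled libraries. None of the 10 Notch pathway genes was marked in either group.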

How the results depend on the processing

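Nrarp kept a negative log2 fold change under the 18 alternatives, from -0.444 to -0.295. It was -0.295 when libraries were scaled by their totals alone, a scaling that moved the median of all genes to 0.12, and -0.415 relative to that median; Dll4 had -0.0772 there and -0.197 relative to the median. Leaving out 1 library gave -0.444 to -0.359 for Nrarp. Of the other 9 genes, Jag1, Notch1, Notch3 and Notch4 were negative and Dll1 positive without PBS-labelled replicates 1 and 2, and the cause was not tested. With all libraries 73 genes were higher and 1 lower by edgeR. DESeq2 called 267 higher and 71 lower, among them 1 lower gene of the pathway list (Nrarp), and scaling by totals called 2 lower. Leaving out 1 library gave 0 to 115 higher and 0 to 5 lower; 0 were called when any of DT-labelled replicates 3, 4, 5 and PBS-labelled replicates 1, 2, 6 was absent, with 737 to 1211 genes higher and 297 to 1019 lower at an unadjusted p under 0.05, while 115 were higher without DT-labelled replicate 1 and 43 without PBS-labelled replicate 4, where 5 were lower. Without PBS-labelled replicates 1 and 2 0 were higher (687 at an unadjusted p under 0.05) and 1 lower, when DT-labelled replicate 1 was left out as well 61 were higher and 1 lower, and with the conceptus covariate 0 were higher and 0 lower (782 and 217). The pathway list had 0 members higher or lower by edgeR in all these fits. Replicate numbers 1 and 4 occur in both groups. The deviations of DT-labelled and PBS-labelled libraries from their group means correlated at -0.491 for number 1 and 0.321 for number 4, so the numbers are not taken as pairs. With the replicate block on these 4 libraries, 0 genes were higher and 0 lower (223 and 58 at an unadjusted p under 0.05), as in the same 4 without it (0 and 0, with 480 and 144), and Nrarp had -0.419 and -0.418 in these fits. Among the other named pathway genes the sign turned in 13 cases, none past the threshold: Pofut1 was 0.0762 with totals; Dll3, Rfng and Hes7 were 0.0855, -0.089 and 0.0849 without PBS-labelled replicates 1 and 2, and 0.0905, -0.0547 and 0.0551 with the conceptus covariate; Dll3, Aph1c, Rfng, Dtx3, Efnb2 and Hes7 were 0.278, 0.0643, -0.112, -0.0279, -0.0514 and 0.0996 when DT-labelled replicate 1 was left out as well. With 50-base windows the shared part of Nrarp was 77.3%.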
